A study of Homo sapiens with 6 samples.

Results

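The interleukin 1 (IL1) family was described here by 7 of its ligand and receptor genes in the human breast cancer line MDA-MB-231, known as a triple-negative line, after 8 h with 5 µM SAHA or with DMSO. SAHA (vorinostat) inhibits histone deacetylases, the enzymes that remove acetyl groups from histones, and DMSO is its solvent. Members were all probe sets of the array whose annotated symbol is exactly IL1A, IL1B, IL1RN, IL1R1, IL1RAP, IL18 or IL33. They came to 14 probe sets, out of 49293 that are not array controls, and to 7 of 18132 genes. A probe set is the group of short probes on an Affymetrix array that together give 1 value for a transcript. Both groups had 3 arrays of the same line grown in DMEM/F12 medium with serum, and the time is the same in both. The labels do not call the replicates separate cultures, so each p-value covers the spread between these samples only, which can be technical.

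IL1A and IL1B encode the classical ligands, which bind IL1R1. The bound receptor then recruits the accessory protein IL1RAP, and the assembled complex signals through MYD88 and IRAK kinases to NF-kB. IL1RN encodes a secreted antagonist that occupies IL1R1 without recruiting IL1RAP. IL33 uses the same accessory chain with another receptor, while IL18 has its own receptor pair. IL1B and IL18 are made as precursors that caspase-1 of the inflammasome cuts, and IL1A and IL33 act as alarm signals of damaged cells. Tumour cells can make IL1 ligands themselves, and in carcinoma the pathway is known for inducing chemokines, IL6 and matrix proteases.

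The start site regions of 3 members are printed because they carry the largest change of a receptor gene, IL1RAP, and the classical ligands IL1A and IL1B. Each window runs from 250 bases before to 50 bases after a RefSeq start site in GRCh38.p14 and is written 5′ to 3′ on the strand of the gene. Capitals mark matches to 1 of 4 motifs searched on both strands, which were the TATA box TATAAA, the GC box GGGCGG, the AP-1 element TGANTCA and the NF-kB element in its degenerate form.
IL1RAP, chr3:190513835-190514134, plus strand: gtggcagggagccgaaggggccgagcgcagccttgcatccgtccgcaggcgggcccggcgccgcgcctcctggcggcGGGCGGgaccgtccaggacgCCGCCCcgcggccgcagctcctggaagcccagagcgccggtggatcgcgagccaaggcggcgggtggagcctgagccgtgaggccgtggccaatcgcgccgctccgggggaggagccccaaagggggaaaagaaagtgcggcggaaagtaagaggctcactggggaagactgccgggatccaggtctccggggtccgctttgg
IL1B, chr2:112836730-112837029, minus strand: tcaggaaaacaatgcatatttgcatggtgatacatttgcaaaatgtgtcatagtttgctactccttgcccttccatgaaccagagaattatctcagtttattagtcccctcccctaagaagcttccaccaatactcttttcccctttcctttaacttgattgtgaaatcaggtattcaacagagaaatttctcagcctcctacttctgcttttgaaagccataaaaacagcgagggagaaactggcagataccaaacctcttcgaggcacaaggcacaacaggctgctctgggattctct
IL1A, chr2:112784351-112784650, minus strand: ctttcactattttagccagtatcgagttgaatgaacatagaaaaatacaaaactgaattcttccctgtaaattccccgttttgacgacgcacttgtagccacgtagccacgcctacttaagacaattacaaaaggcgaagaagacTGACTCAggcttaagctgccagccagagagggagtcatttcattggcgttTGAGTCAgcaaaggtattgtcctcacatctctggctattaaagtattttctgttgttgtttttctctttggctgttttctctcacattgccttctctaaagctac

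The IL1RAP window was GC-rich, with 73.7% G and C and 36 CpG dinucleotides, against medians of 58.7% and 14 over all 35116 windows of this length. It held 2 matches to the GC box, a motif found in 45.0% of all windows. High GC content was not particular to IL1RAP among the members. Of the 4 windows of IL1R1, the richest had 77.7% G and C, 40 CpG dinucleotides and 4 matches to the GC box. The others had 44.3% to 52.7% G and C. The IL1B window had 42.3% G and C, 2 CpG dinucleotides and no match to any of the 4 motifs. The windows of IL1A overlap and held the same 2 matches to the AP-1 element, a motif found in 7.71% of all windows. The TATA box was found in 11.5% and the NF-kB element in 11.3% of all windows, and neither in the 3 windows printed. Of the 7 members, 6 had windows in the table, 13 in all, and no match means only that these letters are not in this window.

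Arrays of the same group were alike, with Pearson's r across probe sets between 0.997 and 0.998, against 0.968 to 0.970 between groups. The line's markers agreed only in part with a mesenchymal line. The mesenchymal markers VIM, CD44, AXL, CAV1, EGFR and TGFBI had group means of 7.39 to 14.02 on the log2 scale, and 5 of the 6 fell with SAHA, among them EGFR by 1.87 and TGFBI by 1.13. Of 7 luminal or epithelial markers 4 fell, GATA3 by 1.23, EPCAM by 0.93, KRT18 by 0.55 and ERBB2 by 0.47. Progesterone receptor (PGR) and E-cadherin (CDH1) were low, the former at 3.29 in DMSO and the latter at 4.10 to 4.37 in single DMSO arrays. Oestrogen receptor (ESR1) was at 5.98, GATA3 at 6.67, ERBB2 (HER2) at 7.63, EPCAM at 8.67 and KRT18 at 12.07 in DMSO, so these values do not by themselves bear out the absence of each receptor. The 5 measured markers of white blood cells, a usual source of IL1, had group means of 3.24 to 5.63. Of these, PTPRC, which encodes the pan-leukocyte antigen CD45, had a mean of 3.33 with DMSO and 3.24 with SAHA. CD14, a monocyte marker, rose from 3.96 to 4.97, CD3E fell by 0.25 on the log2 scale, and the list's values summed to 22.1 to 22.4 in DMSO and 22.6 to 23.2 in SAHA arrays. Of 6 fibroblast markers, each under 6 in both groups, 2 rose, and the list summed to 24.2 to 24.5 with DMSO and 25.5 to 25.9 with SAHA. The part of these markers in the results below was not tested.

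The 3′ minus 5′ difference of the ACTB control, a measure of transcript integrity and amplification, separated the groups, with 0.89 ± 0.16 for DMSO against 0.61 ± 0.06 for SAHA (SD, n = 3; exact permutation test, two-sided p = 0.1, the lowest value possible with 3 arrays a side). The same difference of the GAPDH control went slightly the other way, with means of 0.029 for DMSO and 0.063 for SAHA. With the ACTB difference as a covariate the calls of IL1RAP and IL18 held, and those of IL1A, IL1B and IL33 did not. The differences of the latter were then 0.32 ± 0.16, -0.25 ± 0.11 and -0.25 ± 0.10, of similar size to those without the covariate but with larger standard errors.

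Read from the brightest probe set of each gene, the accessory receptor chain IL1RAP rose most among the 7 genes with SAHA, 3.13-fold. The ligand IL18 rose 1.54-fold. That order depended on the choice of probe set. Averaged over its probe sets, IL1RAP rose by 0.55 on the log2 scale, less than IL18 at 0.62. The ligand IL1B, in a bright probe set, fell by 0.22 on the log2 scale. IL1A rose and IL33 fell by about 0.30 on that scale, in dim probe sets. The IL33 probe set 11751426_a_at was at 0.13 and did not pass. The receptor IL1R1 and the antagonist IL1RN did not pass the test. Values are log2 expression per probe set, differences are SAHA minus DMSO with limma's standard error, and adjusted p-values are over all 49293 probe sets with a threshold of 0.05. In these bulk samples fewer expressing cells and less RNA per cell cannot be told apart.

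Of the 14 probe sets, 4 were called higher and 3 lower. Over all probe sets 46.4% were called, 22.2% higher and 24.1% lower, so 7 of 14 is near the background share. The groups did not overlap in 9 of the 14, against 54.4% of all probe sets. The median difference of the 14 was 0.022, and that of all probe sets was -0.018. Centring on ribosomal protein genes moved the median of all probe sets up by 0.19, and 7 of the 14 were then higher and 0 lower, beside 19874 higher among 27867 called. Centring on poly-A spike-ins moved it by 0.16, and 7276 of 21760 called probe sets were then lower, with 0 of the 14. The share called depends on level: it was 10.1% under a mean log2 value of 4, 29.2% at 4 to 6, 63.4% at 6 to 8 and 72.8% at 8 and over. Members called in these ranges were 2 of 6, 1 of 4, 1 of 1 and 3 of 3.

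Much of the family lay low on the scale. Background control probe sets, which match no human sequence, had a median level of 3.26 and ran from 2.59 to 10.46 with the GC content of their probes. All 3 probe sets of IL33 and 1 of IL1R1 had a mean under that median. Near the floor of the scale a fold change can be understated, and such values cannot show whether the transcript is present at all.

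**Figure D1:**
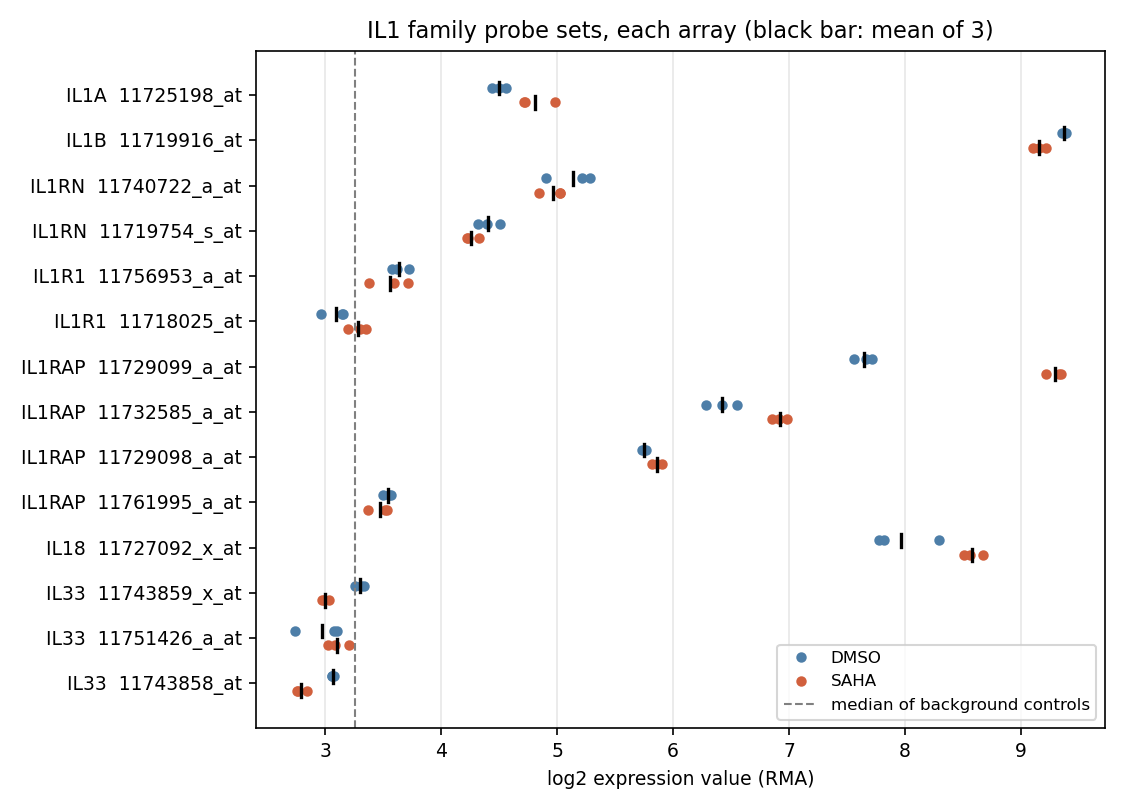
Log2 expression value (x axis) of each of the 14 probe sets (rows) in the 3 DMSO (blue) and 3 SAHA arrays (orange), with black bars at group means and a dashed line at 3.26, the median of the background controls. The brightest IL1RAP probe set moves from 7.65 to 9.29, IL1B stays above 9 in both groups, and the IL33 and IL1R1 probe sets lie beside the dashed line.

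Among the ligands, IL1B, the secreted cytokine that caspase-1 matures, gave log2 values of 9.35, 9.38 and 9.39 with DMSO, against 9.11, 9.15 and 9.22 with SAHA (probe set 11719916_at). Every SAHA value was below every DMSO value, though the groups lay close together. The difference was -0.22 ± 0.06 (limma's adjusted p = 0.0175), a 1.16-fold fall. This call did not hold when arrays were centred on ribosomal protein genes (-0.027) or on poly-A spike-ins (-0.059), nor without DMSO replicate 2 or 3 or SAHA replicate 1 or 2, where the adjusted p lay between 0.0502 and 0.0553.

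IL18, a cytokine that stimulates interferon gamma production, was measured by 1 probe set, 11727092_x_at. Its log2 values were 8.29, 7.82 and 7.78 in DMSO and 8.56, 8.51 and 8.67 in SAHA arrays. DMSO replicate 1 stood apart from the other DMSO arrays, yet the groups did not overlap. The difference was 0.62 ± 0.14 (95% confidence interval 0.31 to 0.93, limma's adjusted p = 0.00582), and leaving out single arrays moved it between 0.53 and 0.78. The probe set's suffix _x_at, like _s_at, marks probes that can also match similar transcripts. Such suffixes are also carried by 11743859_x_at of IL33 and 11719754_s_at of IL1RN. The same holds for the brightest probe sets of CASP4, CAPN2, PELI1 and LIF, given below.

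IL1A, the ligand that acts from the cell surface and from damaged cells, was dim. Its values were 4.44, 4.56 and 4.50 in DMSO and 4.98, 4.71 and 4.72 in SAHA arrays. The groups did not overlap, and SAHA replicate 1 was the highest. The rise was 0.30 ± 0.09 (limma's adjusted p = 0.0204), and it did not pass without DMSO replicate 1 (adjusted p = 0.0610) or replicate 3 (adjusted p = 0.0503).

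IL33, a nuclear alarm cytokine, was at the floor of the scale. Probe set 11743859_x_at gave 3.31, 3.33 and 3.26 in DMSO and 3.03, 2.99 and 2.97 in SAHA arrays, a difference of -0.30 ± 0.06 (limma's adjusted p = 0.00295). Probe set 11743858_at, designed on the same sequence record, gave 3.06, 3.07 and 3.06 against 2.85, 2.76 and 2.77, a difference of -0.27 ± 0.06. In the probe set 11751426_a_at the groups overlapped, with 3.10, 3.08 and 2.74 in DMSO and 3.03, 3.21 and 3.08 in SAHA arrays, and the difference was 0.13 ± 0.11 (adjusted p = 0.365). With the mean of its probe sets IL33 did not pass (-0.15, adjusted p = 0.0573), nor did it after either centring.

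The antagonist IL1RN did not pass in either of its probe sets. Probe set 11740722_a_at gave 5.21, 4.90 and 5.29 in DMSO and 4.85, 5.03 and 5.03 in SAHA arrays, and DMSO replicate 2 lay among the SAHA values. Its difference was -0.17 ± 0.11, with a 95% confidence interval of -0.42 to 0.09 (limma's adjusted p = 0.267). Without DMSO replicate 2 the difference was -0.28 and passed (adjusted p = 0.0328). Probe set 11719754_s_at gave 4.32, 4.40 and 4.51 against 4.23, 4.22 and 4.33, with overlapping groups and a confidence interval of -0.31 to 0.018. After centring on ribosomal protein genes both were slightly above 0, at 0.023 and 0.041.

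Of the receptor chains, the ligand-binding IL1R1 was dim in both groups. Probe set 11756953_a_at gave 3.62, 3.57 and 3.72 in DMSO and 3.38, 3.72 and 3.59 in SAHA arrays, with overlapping groups and a difference of -0.078 ± 0.095, which turned to 0.11 or 0.080 after those centrings (95% confidence interval -0.30 to 0.14, limma's adjusted p = 0.558). Its other probe set, 11718025_at, gave 3.15, 2.96 and 3.16 against 3.20, 3.36 and 3.30. Those groups did not overlap, but the difference of 0.19 ± 0.08 did not pass (adjusted p = 0.0794), and it passed after centring on ribosomal protein genes (0.38) or poly-A spike-ins (0.35).

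IL1RAP, the signalling chain shared by the receptors of IL1, IL33 and the IL36 cytokines, had 4 probe sets that moved unequally. The brightest, 11729099_a_at, gave 7.56, 7.67 and 7.72 in DMSO and 9.34, 9.21 and 9.33 in SAHA arrays. Its groups lay far apart compared with their spread, 7.65 ± 0.08 against 9.29 ± 0.07 (SD, n = 3). The rise was 1.65 ± 0.07 (95% confidence interval 1.48 to 1.81, limma's adjusted p = 1.17e-06), and it stayed called in all 17 alternatives that could be computed for this gene.

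The next, 11732585_a_at, gave 6.55, 6.42 and 6.28 in DMSO and 6.92, 6.85 and 6.99 in SAHA arrays. It rose by 0.50 ± 0.08 (limma's adjusted p = 0.00136) and its groups did not overlap. Probe set 11729098_a_at gave 5.73, 5.75 and 5.77 against 5.90, 5.86 and 5.82, a difference of 0.11 ± 0.06 that did not pass (adjusted p = 0.164). The dimmest, 11761995_a_at, gave 3.55, 3.50 and 3.57 against 3.37, 3.52 and 3.53, with overlapping groups and a difference of -0.067 ± 0.068 (adjusted p = 0.482), which turned to 0.12 or 0.091 after centring on ribosomal protein genes or poly-A spike-ins. With the mean of the 4 probe sets IL1RAP rose by 0.55.

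The first and second of these probe sets were designed on different RefSeq transcripts of IL1RAP, the first on the one for the full-length membrane receptor and the second on the one for a shorter, secreted form. Where their probes lie on these transcripts is not given in the sources used here. The change of the first, taken within arrays, exceeded that of the second by 1.15, of 11729098_a_at by 1.54 and of 11761995_a_at by 1.71. These comparisons were made with the unequal changes known, and an exact permutation test of 3 against 3 arrays cannot give a p under 0.1. They are a description, and a change particular to 1 transcript form was not tested.

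**Figure D2:**
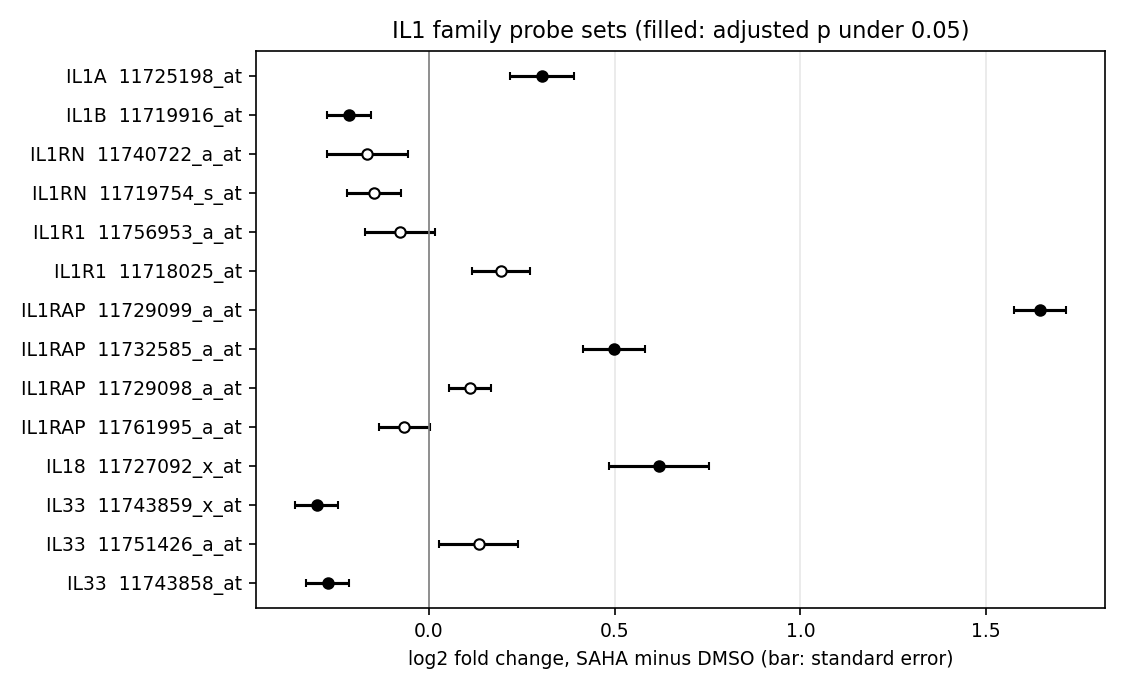
Difference in log2 expression, SAHA minus DMSO (x axis), for each of the 14 probe sets (rows), with bars for limma's standard error and filled points for an adjusted p under 0.05. IL1RAP spans 1.65 to -0.067 over its 4 probe sets, IL18 is at 0.62, and all other probe sets lie between -0.30 and 0.30.

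The genes whose profile over the 6 arrays was most like that of the brightest IL1RAP probe set were GPSM2, DIXDC1 and PLEKHH2, each with a Pearson r of 0.9998 or 0.9999. They rose by 1.06, 2.77 and 2.20 on the log2 scale. With 2 groups this far apart such likeness was common, since 1315 of 18132 genes had an r over 0.99.

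**Figure D3:**
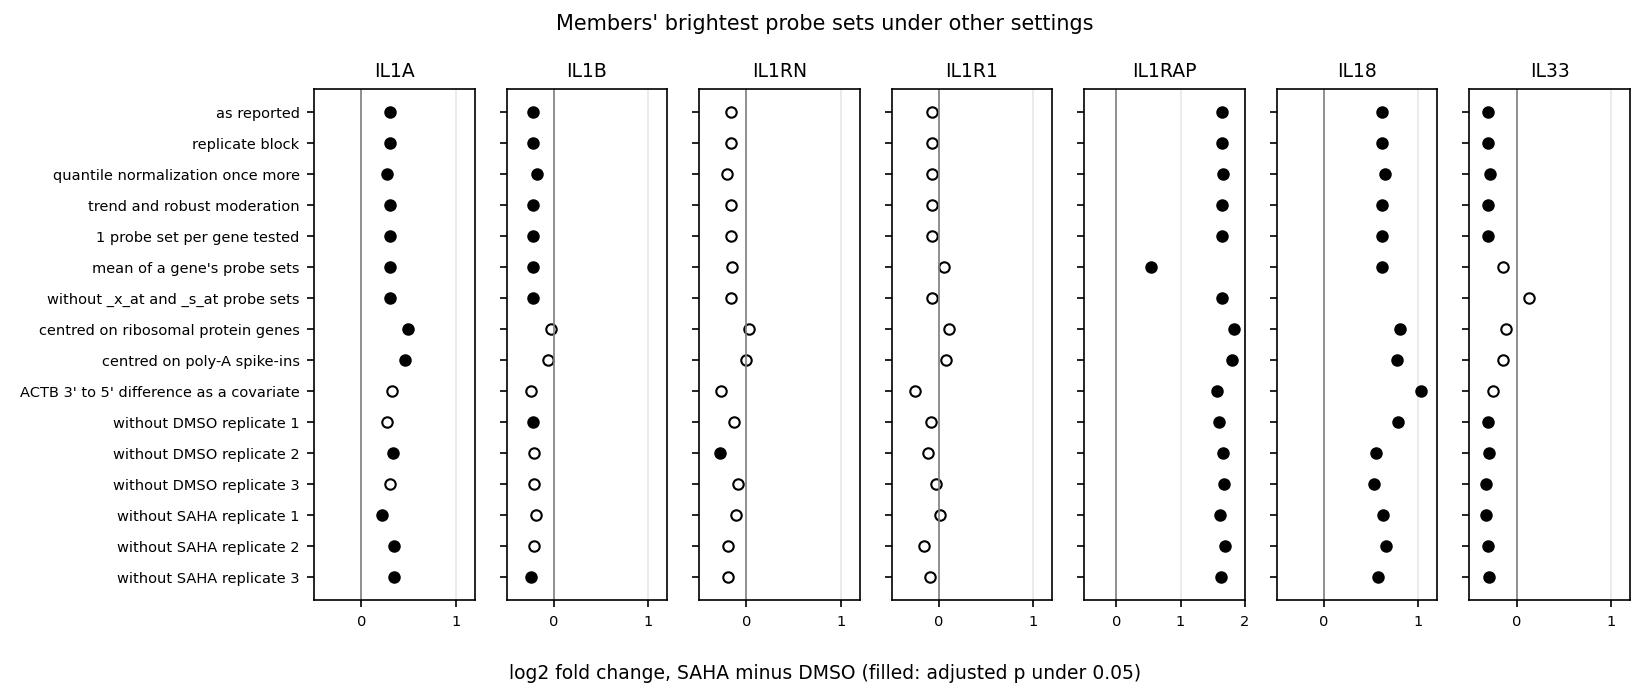
Difference in log2 expression, SAHA minus DMSO (x axes), of each member (panels) as reported and under 15 other settings (rows). Filled points mark an adjusted p under 0.05. A member is read from its brightest probe set, but from an average in the row for the mean of probe sets. Without _x_at and _s_at probe sets IL33 is read from 11751426_a_at. The 2 settings that drop dim probe sets are not drawn, and settings without a value for a gene are blank. IL1RAP and IL18 stay to the right of 0 and filled wherever they have a value. The IL1B points turn open in 7 settings. These are both centrings, the ACTB covariate, and without DMSO replicate 2 or 3 or SAHA replicate 1 or 2.

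In the pathway around these genes a gene was represented by its brightest probe set. Over all genes 24.1% were higher and 23.2% lower, with a median difference of -0.0074. The share called rises with level, as given above for all probe sets. The rest of the family was mostly dim. Of 15 other IL1 family ligands and receptors, 0 were called higher and 2 lower in limma's test, and at an unadjusted p under 0.05, 1 was higher and 2 lower. In 12 of the 15 both group means were under 6. IL1RAPL1, a relative of IL1RAP known from neuronal synapses, fell by 1.06 ± 0.07 (limma's adjusted p = 6.74e-06), from 7.55, 7.59 and 7.70 in DMSO to 6.50, 6.56 and 6.60 in SAHA arrays. IL18RAP, the accessory chain of the IL18 receptor, fell by 0.19 ± 0.07 near the floor (adjusted p = 0.0416), a call lost in 10 of the 15 alternatives with a value. IL1RL2, the IL36 receptor, was at 0.19 ± 0.11 (adjusted p = 0.204) and IL1RAPL2 at 0.18 ± 0.07 (adjusted p = 0.0781), and both passed as higher after either centring.

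Of 19 genes of the inflammasome and of cytokine release, inhibitors included, 7 fell and 2 rose, with a median of -0.13. NLRP3, an inflammasome sensor, fell by 1.23 ± 0.12 (limma's adjusted p = 6.25e-05), from 6.95 ± 0.12 to 5.72 ± 0.22 (SD, n = 3), and by 1.07 in its other probe set. CASP4, the caspase of the inflammasome that senses cytosolic lipopolysaccharide, fell by 1.09 ± 0.06, and each of its other 6 probe sets fell too, by 0.69 to 1.34. GSDME, a pore-forming gasdermin, fell by 0.76 ± 0.06 and CAPN2, a calpain subunit, by 0.45 ± 0.06. NINJ1, which ruptures the plasma membrane of dying cells, rose by 0.31 ± 0.07, a call lost when the ACTB covariate was added (0.21, adjusted p = 0.251). CARD16, a caspase-1 inhibitor, rose by 0.22 ± 0.07 at a level of 3.38 to 3.60, a call lost in 8 of 15 alternatives, and its other probe set did not pass. CASP1 itself, named after its values were seen, was near the floor at 3.48 ± 0.13 and 3.50 ± 0.40, and the adaptor PYCARD was at -0.17 ± 0.11 (adjusted p = 0.267). The count of 2 rises depended on the setting: it was 6 after centring on ribosomal protein genes, 0 with the ACTB covariate, and 1 with the replicate block, either filter on dim probe sets, trend and robust moderation, the mean of probe sets, or without DMSO replicate 2 or 3 or SAHA replicate 1 or 2.

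Signalling components below the receptor moved both ways. Of 20 measured, 10 rose and 7 fell, with a median of 0.22. With the ACTB difference as a covariate 6 rose and 6 fell. In 0 of the 20 were both group means under 6. Of all probe sets, 63.4% were called at a mean log2 value of 6 to 8 and 72.8% at 8 and over. MYD88, the adaptor that the receptor complex recruits, fell 2.29-fold (limma's adjusted p = 2.78e-06), from 8.79, 8.86 and 8.73 in DMSO to 7.59, 7.56 and 7.64 in SAHA arrays, and its other 4 probe sets fell by 0.44 to 1.09 on the log2 scale. IRAK1, the kinase that MYD88 engages, fell by 0.84 ± 0.07. The 3 Pellino genes, ubiquitin ligases that act with IRAK kinases, rose. PELI2 rose by 2.25 ± 0.12 (from 3.98 to 6.23), PELI3 by 1.43 ± 0.09 and PELI1 by 1.02 ± 0.07. All 4 probe sets of PELI1 rose, whereas the second probe set of PELI2 gave 0.074 (adjusted p = 0.547) and the others of PELI3 gave 0.41 and -0.011. IRAK3, a brake on the pathway, fell by 1.43 ± 0.12 and IRAK2 rose by 0.32 ± 0.08, both named after their values were seen. IRAK4 was not analysed here.

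Genes that IL1 induces in other cells were mostly higher. Of 23 measured, 18 rose and 3 fell, with a median of 0.84, and CSF2, BIRC3 and SOD2 were not analysed here. This list was written with earlier results for some of its genes known, so its direction is no independent evidence. CCL20, a lymphocyte chemokine, went from 5.18, 5.72 and 5.30 with DMSO to 12.77, 12.77 and 12.85 with SAHA, a rise of 7.39 ± 0.13 (limma's adjusted p = 9.72e-08). ICAM1, an adhesion receptor, rose by 2.65 ± 0.06 and IL6 by 2.12 ± 0.07, or by 0.52 in the dimmer IL6 probe set. LIF, of the IL6 family, fell by 2.24 ± 0.06 and by 1.39 and 0.41 in its other probe sets. CCL2, a monocyte chemokine, fell by 1.63 ± 0.09. The neutrophil chemokines CXCL1, CXCL2, CXCL3 and CXCL8, named after their values were seen, rose by 1.75, 1.86, 0.90 and 1.62, and CXCL1, CXCL2 and CXCL8 were read from probe sets whose probes can match similar transcripts.

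**Figure D4:**
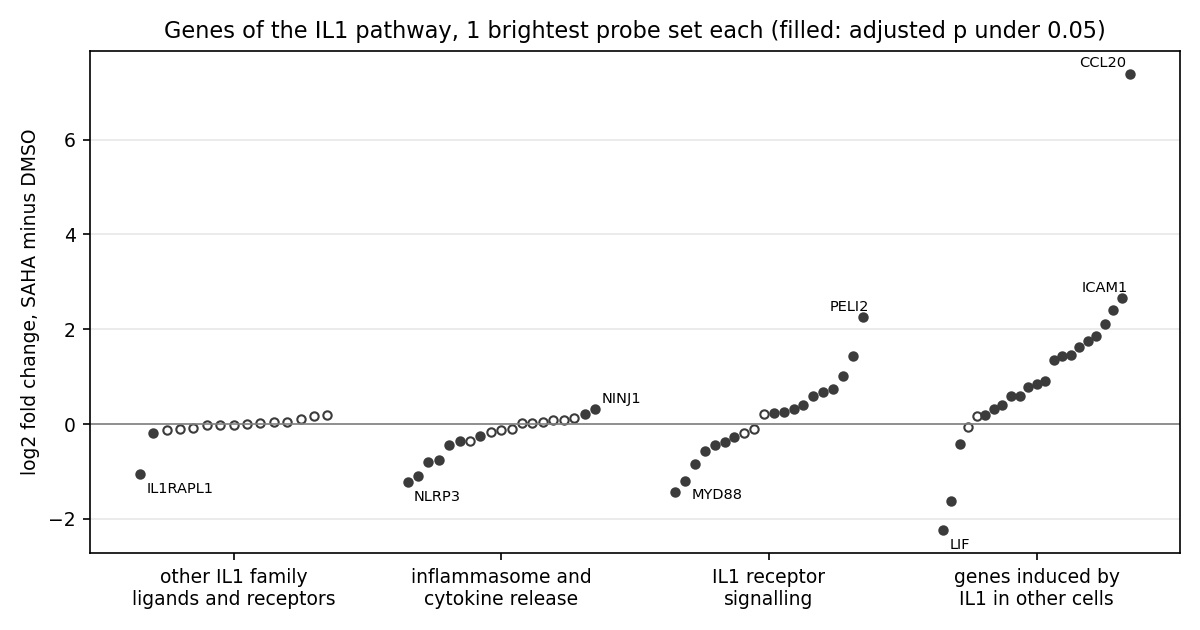
Difference in log2 expression, SAHA minus DMSO (y axis), of each measured gene in 4 lists (x axis), sorted within a list, with filled points for an adjusted p under 0.05. The first list stays within 0.19 of 0 apart from IL1RAPL1 at -1.06, and the last reaches 7.39 at CCL20.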

How the data were processed

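Total RNA was amplified by 3′ in vitro transcription, labelled with biotin and hybridized to 6 arrays, per the labels' protocols. What the authors deposited is 1 log2 value for each probe set and array, made with RMA per the submitters' processing notes. Neither the software nor its release is given in the sources used here. RMA equalizes the arrays' distributions, so a general shift of transcripts cannot be read. Values ran from 2.33 to 14.33, and with 3 arrays per group their number limits the precision.

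Of 49395 probe sets, 102 were controls. The platform annotation named 1 gene for 44988 probe sets, several for 1832 and none for 2473, and none of the several-gene probe sets held a member. Array groups and numbers came from the labels. SAHA minus DMSO was fitted for all non-control probe sets with limma 3.58.1 in R 4.3.3 (lmFit, eBayes, no covariate, no filter), two-sided with Benjamini-Hochberg adjustment at 0.05, after the procedure was tested on simulated data. A gene is its probe set with the highest mean. The members and gene lists were chosen with earlier results of these data known. Named genes were all members, the 4 smallest p-values of each list, up to 2 called genes against its main direction, each called gene among the other IL1 family genes, and the 3 profiles closest to the most changed member. Alternatives were a replicate block, filters at mean log2 values of 5 and 7, repeated quantile normalization, centring on 182 ribosomal protein probe sets or on poly-A spike-ins, trend and robust moderation, the ACTB difference as a covariate, other choices of probe sets, and leaving out each array. Start site sequences are from RefSeq, GRCh38.p14. Probe positions are not given because no build is named for them. Figures were drawn with matplotlib 3.10.9.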

Additional observations from a re-analysis of the deposited data

How the results depend on the processing

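The calls of IL1RAP and IL18 held in each alternative that gave them a value (0.55 to 1.83 and 0.53 to 1.03). Centring on ribosomal protein genes or poly-A spike-ins shifted the median of all probe sets by 0.19 or 0.16. Centred on ribosomal protein genes, 7 member probe sets were higher and 0 lower, and on poly-A spike-ins 0 were lower. IL1B was then at -0.027 and -0.059, IL33 at -0.11 and -0.15, IL1R1 at 0.11 and 0.080, and IL1RN at 0.023 with the former, while the second IL1RN probe set was at 0.041 and 0.0095 and the dimmest of IL1RAP at 0.12 and 0.091. Over all probe sets 19874 were then higher with the former and 7276 lower with the latter, against 10949 and 11901, and 5 other family genes were called with the former.

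With the ACTB difference as a covariate 3 member probe sets were called, 0 of them lower, with IL1A at 0.32, IL1B at -0.25 and IL33 at -0.25. Without probe sets under a mean of 5, 4 were called and 1 was lower; under 7, 3 were called, 2 higher and 1 lower, with 7265 higher over all probe sets and 4 release genes called. With 1 probe set per gene tested, 8764 were called, 4457 higher and 4307 lower. Averaging the probe sets of each gene put IL1R1 at 0.058 and IL33 at -0.15. Without _x_at and _s_at probe sets IL18 had no value, and IL33 was at 0.13, read from 11751426_a_at as the brightest one left. The IL33 probe set 11743858_at, also without those suffixes, was called lower at -0.27.

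Leaving out single arrays gave 0.22 to 0.35 for IL1A, -0.25 to -0.19 for IL1B, -0.28 to -0.090 for IL1RN and -0.16 to 0.013 for IL1R1. Of the other family genes, 1 to 2 were then called, and 1 was called with either filter, trend and robust moderation, the ACTB covariate or the block. Same-numbered arrays showed no likeness in their deviations from the group means, which correlated at -0.10 to -0.03. Whether they share a culture or a batch cannot be told from this. The replicate block gave 21454 called probe sets in place of 22850 and changed no call of a member, and of the named genes it lost IL18RAP and CARD16. Where a call was lost the cause was not tested, and some settings also left fewer probe sets or arrays. IL33 and IL1R1 lie at the level of the background controls, which limits what their values can show.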
